A study of Mus musculus with 8 samples.

Results

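The transcription factors described here are Tbx4, Tbx5, Tbx15, Tbx18, Prrx1, Prrx2, Twist1, Twist2, Tcf21 and Meox2, which mark and pattern embryonic mesenchyme. They were chosen by gene name, and all 10 of the 10 names were found among the 48527 genes of the per-library expression table. The cells were mouse embryonic fibroblasts (MEFs), adherent mesenchymal cells grown from mouse embryos, transduced with lentivirus and kept in medium with 1 ug/mL doxycycline. In 4 libraries the vector encoded wild-type YAP fused to a fluorescent protein (wtYAP), and in 4 control libraries it was an empty vector (EV) that encoded the fluorescent protein alone. The fluorescent protein was GFP in replicates 1 and 2 of either group and mCherry in replicates 3 and 4. Cells of both groups were sorted on that fluorescence, so that each library holds transduced cells. The strain, the embryonic stage and the part of the embryo are not given by the labels, and nothing in them says that replicates came from separate cultures. The p-values therefore reflect no more than the scatter among these 8 libraries, and that scatter may be technical.

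T-box proteins bind DNA through a shared T domain and set limb, heart and body wall identity. Prrx1 and Prrx2 are paired-related homeobox factors of limb and facial mesenchyme, and Meox2 is a homeobox factor of the somites and limb muscle. Twist1, Twist2 and Tcf21 are basic helix-loop-helix (bHLH) factors, which bind E-boxes as dimers with E proteins such as Tcf3 and are held back by Id proteins. YAP is a coactivator of the Hippo pathway that reaches DNA mainly through TEAD factors, so the comparison asks how these identity factors stand in fibroblasts given more YAP.

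The promoters of 4 members are shown because they are the only member promoters with the YAP partner's motif or with a CCAAT box, a common promoter element. The RefSeq table of build GRCm38.p6 gave promoters for 8 of the 10 members and none for Tbx5 and Tbx15. Each window is 300 bases, 250 before and 50 after the annotated start, read on the gene's own strand. In Prrx1 (chr1:163313601-163313900, minus strand) capitals mark GGAATG, the core bound by TEAD factors. In Tbx18 (chr9:87731211-87731510, minus strand), Twist1 (chr12:33957421-33957720, plus strand) and Twist2 (chr1:91801211-91801510, plus strand) capitals mark CCAAT or its reverse complement.
Prrx1 promoter: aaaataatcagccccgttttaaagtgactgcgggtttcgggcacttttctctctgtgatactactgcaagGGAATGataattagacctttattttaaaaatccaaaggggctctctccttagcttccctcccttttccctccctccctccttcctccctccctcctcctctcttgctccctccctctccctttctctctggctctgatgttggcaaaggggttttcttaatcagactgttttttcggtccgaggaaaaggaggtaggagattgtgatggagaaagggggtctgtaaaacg
Tbx18 promoter: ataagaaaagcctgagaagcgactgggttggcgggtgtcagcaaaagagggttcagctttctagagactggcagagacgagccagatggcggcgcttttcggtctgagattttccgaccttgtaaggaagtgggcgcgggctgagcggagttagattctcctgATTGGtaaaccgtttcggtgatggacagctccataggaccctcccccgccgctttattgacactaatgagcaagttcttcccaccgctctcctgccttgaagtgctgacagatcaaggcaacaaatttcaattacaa
Twist1 promoter: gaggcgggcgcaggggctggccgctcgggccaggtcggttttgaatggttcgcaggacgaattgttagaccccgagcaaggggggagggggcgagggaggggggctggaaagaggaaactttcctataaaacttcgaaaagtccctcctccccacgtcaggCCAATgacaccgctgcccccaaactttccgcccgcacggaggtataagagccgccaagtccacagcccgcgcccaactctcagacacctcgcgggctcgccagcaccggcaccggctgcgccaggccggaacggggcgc
Twist2 promoter: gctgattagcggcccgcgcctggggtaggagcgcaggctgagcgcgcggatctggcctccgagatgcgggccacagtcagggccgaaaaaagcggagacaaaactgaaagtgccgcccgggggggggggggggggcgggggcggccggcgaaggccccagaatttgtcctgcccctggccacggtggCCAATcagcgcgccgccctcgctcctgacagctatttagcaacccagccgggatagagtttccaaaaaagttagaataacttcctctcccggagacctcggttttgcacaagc
Motifs were searched on both strands. GGAATG stood in 1 of the 8 member promoters, that of Prrx1, at 180 to 175 bases before the start, against 14.7% of all 32851 promoters of this length. CCAAT stood in 3 of 8, against 37.4% of all. The E-box CANNTG, the kind of site that Twist and Tcf21 dimers bind, stood in 3 of 8 (Tbx4, with 6 matches, Tbx18 and Meox2), against 72.3% of all. The T-box motif GGTGTGA stood in 0 of 8, against 3.98% of all. TATAAA stood in 3 of 8 (Tbx4, Twist1 and Meox2), against 13.6% of all. These are matches of letters in 1 window per gene and do not show binding.

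The vector was first checked through Yap1, the mouse gene for YAP. Yap1 averaged 82.1 ± 2.22 FPKM in libraries labelled YAP and 90.6 ± 2.50 FPKM in libraries labelled EV (SD, n = 4 each), where FPKM is a fragment count scaled to transcript length and library size. All 4 values in libraries labelled YAP lay below all 4 values in libraries labelled EV, and limma gave an adjusted p of 0.259. The Yap1 level thus does not show the transgene, and the groups are called by their labels throughout. The known YAP target Cyr61 averaged 859.7 ± 83.0 FPKM in libraries labelled YAP and 467 ± 53.1 FPKM in libraries labelled EV, a rise of 0.88 on the log2(FPKM + 0.5) scale (SE 0.068, limma adjusted p = 0.00273). The targets Ctgf (log2 difference 0.87), Ankrd1 (1.09) and Amotl2 (1.83) also rose. The Ctgf call was lost on leaving out YAP replicate 2 or EV replicate 1, the Ankrd1 call in 6 of the 8 leave-one-out fits and the Amotl2 call in 5.

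Summed FPKM over all genes ran between 880959 and 898157 in libraries labelled YAP and between 733695 and 1018956 in libraries labelled EV. A single gene, Gm3788, held 22.2% to 27.4% of that sum in libraries labelled YAP and 13.5% to 29.1% in libraries labelled EV. The FPKM values hold no read totals, so the depth behind each value is unknown. Of 12 fibroblast markers, 12 passed the filter on level. Their summed level was 10738 to 12372 FPKM in libraries labelled YAP and 10825 to 11559 FPKM in libraries labelled EV. Vim, Col1a1, Col1a2, Col3a1 and Fn1 made up most of that sum, so it says little of the other fibroblast markers. Myod1, Myf5 and Myog of skeletal muscle were listed at 0 in all 8 libraries, as were Myh7 and Nkx2-5 of the heart and Epcam, Krt5 and Esrp1 of epithelium. Of the 8 epithelial markers 6 stayed below 1 FPKM in all 8 libraries. Krt18 and Krt19 did not, and Krt19 ran from 14.2 to 32.9 FPKM in libraries labelled YAP and from 6.20 to 16.6 FPKM in libraries labelled EV.

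None of the 9 members that could be tested passed the threshold between vectors, while the levels of the 10 members differed widely among themselves. Ordered by mean level, the members stood alike in both groups except that Tbx15 and Twist1 changed places. The test was limma on log2(FPKM + 0.5) over the 13276 genes with a mean of at least 1 FPKM, with a term for the reporter and a threshold of 0.05 on the adjusted p. It called 0 of the 9 members higher and 0 lower, against 1.76% of all tested genes called in either direction. At an unadjusted p under 0.05 stood 1 of the 9, Tbx18, against 14.5% of all tested genes. The groups overlapped for all 10 members, whereas 9.46% of all tested genes had groups that did not overlap. The estimate lay below 0 for 8 of the 9, against 50.7% of all tested genes, with a median log2 difference of -0.11 over the 9 and of -0.0038 over all genes tested. The 95% interval stayed within 0.5 of 0 on the log2 scale for 5 of the 9 (49.7% of all tested genes) and within 1 of 0 for 9 of the 9 (82.9%). These are bulk measurements of sorted cells, in which fewer cells expressing a gene and less RNA per cell cannot be told apart.

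**Figure D1:**
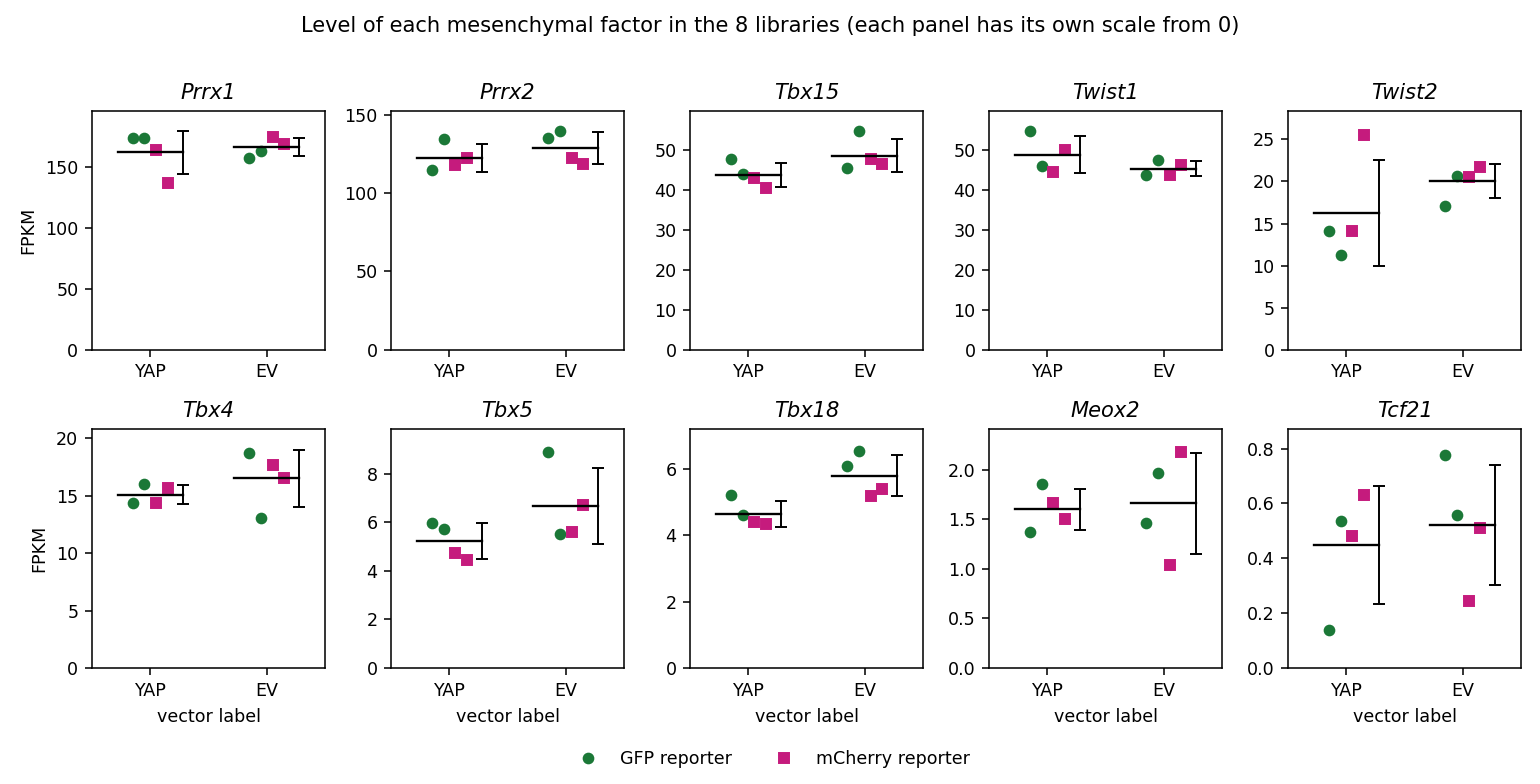
FPKM of each of the 10 factors in the 8 libraries, with YAP-labelled libraries left of EV-labelled ones in every panel; green circles are GFP and magenta squares mCherry libraries, horizontal lines are group means and vertical bars 1 SD (n = 4). The groups overlap in all 10 panels, and the levels span from about 166 FPKM for Prrx1 to about 0.522 FPKM for Tcf21 in EV-labelled libraries.

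The paired-related factors stood highest. Prrx1 (ENSMUSG00000026586, GRCm38 chromosome 1, 163245119 to 163313710, minus strand) is needed in mouse for limb and craniofacial skeletal mesenchyme. It had 174, 174, 164 and 137 FPKM in replicates 1 to 4 labelled YAP, against 158, 164, 175 and 169 FPKM in replicates 1 to 4 labelled EV. The lowest and nearly the highest of the 8 values thus both came from libraries labelled YAP, and the groups overlapped. Its log2 difference was -0.042 (SE 0.090, 95% interval -0.25 to 0.17), with a limma adjusted p of 0.872. Prrx1 exceeded 95.6% of all tested genes in libraries labelled EV, where 579 genes stood above it.

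Prrx2 (ENSMUSG00000039476, chromosome 2, 30834972 to 30881251, plus strand) overlaps with Prrx1 in function, and mice without both have more severe skeletal defects than mice without Prrx1. It had 115, 135, 118 and 122 FPKM in replicates 1 to 4 labelled YAP, against 135, 139.8, 122 and 118 FPKM in those labelled EV. The values interleave. Its log2 difference was -0.074 (SE 0.071, interval -0.24 to 0.093, limma adjusted p = 0.686). The pair supplied 64.6% to 70.4% of the summed FPKM of the 10 members in libraries labelled YAP and 66.4% to 67.7% in libraries labelled EV. That sum was 420.4 ± 17.8 FPKM in libraries labelled YAP and 440.2 ± 9.28 FPKM in libraries labelled EV (SD, n = 4 each), and its ranges, 402 to 439 and 434 to 454 FPKM, overlapped.

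The 4 T-box genes spread over a range of levels, and all 4 had estimates below 0 that did not pass the threshold. Tbx15 (ENSMUSG00000027868, chromosome 3, 99240381 to 99354259, plus strand), a factor of the limb girdles, skeleton and dorsal skin, was the most abundant of them. It had 47.7, 43.9, 43.0 and 40.3 FPKM in replicates 1 to 4 labelled YAP, against 45.5, 54.6, 47.6 and 46.4 FPKM in those labelled EV. Only replicate 1 labelled YAP stood among the EV-labelled values. The log2 difference was -0.15 (SE 0.077, interval -0.33 to 0.035, limma adjusted p = 0.449).

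Tbx4 (ENSMUSG00000000094, chromosome 11, 85886422 to 85916097, plus strand) acts in hindlimb and lung mesenchyme. It had 14.4, 15.99, 14.4 and 15.7 FPKM in replicates 1 to 4 labelled YAP, against 18.7, 13.1, 17.7 and 16.6 FPKM in those labelled EV. All 4 values labelled YAP fell inside the range of those labelled EV. Tbx4 had a log2 difference of -0.11 (SE 0.12, interval -0.40 to 0.17, limma adjusted p = 0.720).

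Tbx5 (ENSMUSG00000018263, chromosome 5, 119832668 to 119885219, plus strand), required for forelimb outgrowth and heart septation, had 5.98, 5.70, 4.71 and 4.45 FPKM in replicates 1 to 4 labelled YAP. In replicates 1 to 4 labelled EV it had 8.88, 5.51, 5.61 and 6.69 FPKM. Replicate 1 labelled EV stood apart from the other 7 libraries, and the groups overlapped. Tbx5 had a log2 difference of -0.31 (SE 0.15, interval -0.67 to 0.043, limma adjusted p = 0.398). Tbx5 was the 1 member that the authors' deposited table calls significant, with 6.02 FPKM in the pooled YAP arm, 8.39 FPKM in the pooled EV arm and a q-value of 0.0421. That table calls 5.95% of the 12005 genes it tests, it tested 8 of the members, and it marks Tcf21 and Meox2 as not tested. In limma the Tbx5 difference was -0.20 without EV replicate 1 and -0.46 without EV replicate 2, with adjusted p from 0.187 to 0.642 over 19 alternative settings.

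Tbx18 (ENSMUSG00000032419, chromosome 9, 87702800 to 87731260, minus strand) is a factor of the epicardium, the sinus node and ureter mesenchyme. It had 5.21, 4.62, 4.41 and 4.34 FPKM in replicates 1 to 4 labelled YAP, against 6.08, 6.56, 5.18 and 5.39 FPKM in those labelled EV. Only the highest value labelled YAP, 5.21, and the lowest labelled EV, 5.18, crossed. Within GFP both values labelled YAP lay below both labelled EV, and the same held within mCherry. The log2 difference was -0.29 (SE 0.089, interval -0.50 to -0.080), with an unadjusted p of 0.0136 in limma and an adjusted p of 0.205. By exact permutation of the group labels over the 8 libraries (two-sided) p was 0.0571, where the smallest p possible is 0.0286. The authors' deposited table gives Tbx18 5.64 FPKM in the pooled YAP arm and 6.66 FPKM in the pooled EV arm, with a q-value of 0.561. Summed over the 4 T-box genes, the level was 68.7 ± 3.80 FPKM in libraries labelled YAP and 77.5 ± 2.28 FPKM in libraries labelled EV, and most of it was Tbx15. The sums ran from 64.8 to 73.3 FPKM in libraries labelled YAP and from 75.1 to 79.7 FPKM in libraries labelled EV and did not overlap, although the values of each of the 4 genes did. This sum is a description over chosen genes and was not tested.

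Among the bHLH members, Twist1 was the only tested member with an estimate above 0. Twist1 (ENSMUSG00000035799, chromosome 12, 33957671 to 33959829, plus strand) acts in cranial mesoderm and neural crest and can drive epithelial-mesenchymal transition (EMT). It had 54.8, 46.1, 44.4 and 49.9 FPKM in replicates 1 to 4 labelled YAP, against 43.7, 47.5, 43.8 and 46.2 FPKM in those labelled EV. The 2 highest values came from libraries labelled YAP and the groups overlapped. Twist1 had a log2 difference of 0.10 (SE 0.082, interval -0.090 to 0.29, limma adjusted p = 0.627).

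Twist2 (ENSMUSG00000007805, chromosome 1, 91801461 to 91848028, plus strand), its close relative of the dermis, had 14.2, 11.3, 14.1 and 25.5 FPKM in replicates 1 to 4 labelled YAP. In replicates 1 to 4 labelled EV it had 17.1, 20.7, 20.6 and 21.7 FPKM. Replicates 1 to 3 labelled YAP lay below all EV-labelled values, and replicate 4 labelled YAP was the highest of the 8. The log2 difference was -0.35 (SE 0.20, interval -0.82 to 0.11, limma adjusted p = 0.477), with the widest spread between libraries labelled YAP of any tested member (SD 38.7% of the mean, against 10.1% in libraries labelled EV). Without YAP replicate 4 it was -0.56 with a limma adjusted p of 0.118.

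The remaining members were low. Meox2 (ENSMUSG00000036144, chromosome 12, 37108540 to 37179534, plus strand) had 1.38, 1.85, 1.67 and 1.4998 FPKM in replicates 1 to 4 labelled YAP, against 1.46, 1.97, 1.04 and 2.17 FPKM in those labelled EV. The values labelled YAP lie inside the range of those labelled EV. Its log2 difference of -0.015 had the widest interval of the tested members, -0.56 to 0.53 (limma adjusted p = 0.989), and its sign turned in 5 of 18 alternative settings. Tcf21 (ENSMUSG00000045680, chromosome 10, 22817281 to 22820174, minus strand), a factor of epicardium and of kidney and lung mesenchyme, fell under the filter on level and was not tested. It had 0.138, 0.535, 0.482 and 0.632 FPKM in replicates 1 to 4 labelled YAP, against 0.775, 0.557, 0.244 and 0.511 FPKM in those labelled EV. The lowest value came from a library labelled YAP and the highest from one labelled EV, with the others mixed.

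**Figure D2:**
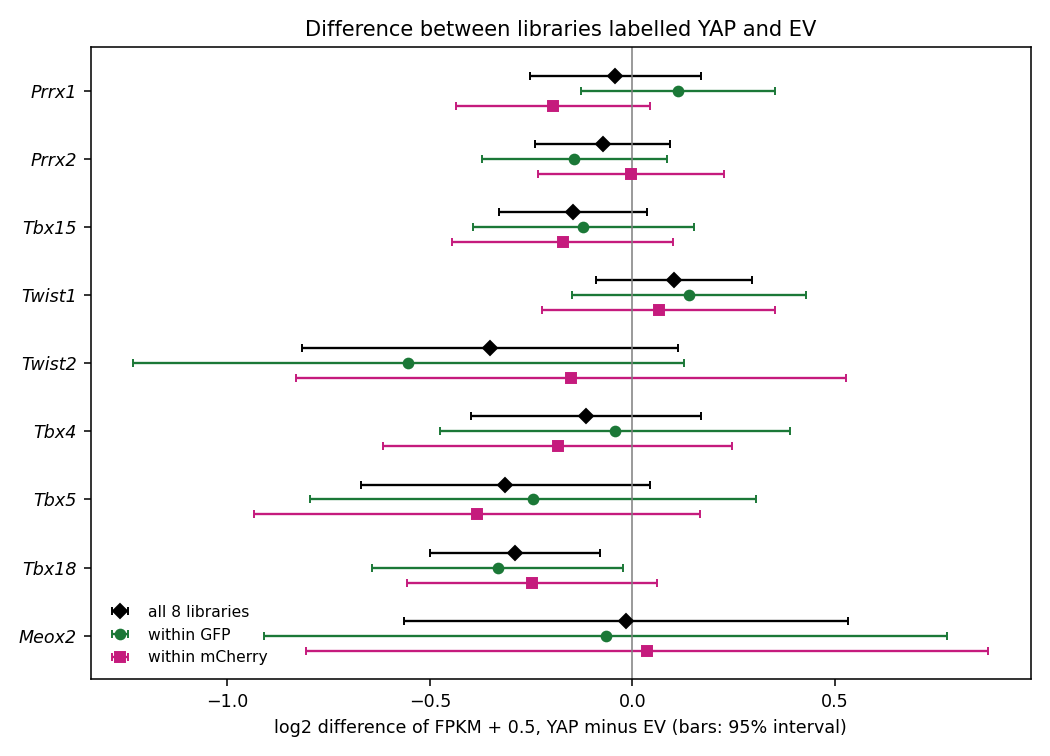
Log2 difference of FPKM + 0.5, YAP minus EV, for the 9 tested members in all 8 libraries (black diamonds), within GFP (green circles) and within mCherry (magenta squares); bars are 95% intervals from limma. Of the all-library intervals only that of Tbx18 lies wholly below 0 (-0.50 to -0.080), and its adjusted p is 0.205.

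In libraries labelled EV the order of the means, which compares levels per kilobase, was Prrx1, Prrx2, Tbx15, Twist1, Twist2, Tbx4, Tbx5, Tbx18, Meox2 and Tcf21. Neighbours in that order whose ranges overlapped in both groups were Tbx15 and Twist1, Twist2 and Tbx4, and Tbx5 and Tbx18. All other neighbours had separate ranges in both groups. The steps were largest between Tbx18 and Meox2 (3.50-fold) and between Meox2 and Tcf21 (3.18-fold). Twist1 lay above 82.6% of tested genes in libraries labelled EV, Tbx4 above 58.1%, Tbx5 above 32.3% and Meox2 above 6.94%. Among the 91 developmental regulators considered here, members, cofactors and Id inhibitors included, Prrx1 and Prrx2 ranked 2nd and 3rd in libraries labelled EV. Above both stood Id3, an Id inhibitor, with 189 FPKM.

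The balance within pairs of related genes was compared as a ratio of FPKM in each library, as a description with no test. Twist1 exceeded Twist2 by 3.87, 4.07, 3.14 and 1.96 times in replicates 1 to 4 labelled YAP, against 2.55, 2.30, 2.13 and 2.13 times in those labelled EV. Replicates 1 to 3 labelled YAP lay above all EV-labelled ratios and replicate 4 below them. Tbx15 over Tbx18 was 9.43 ± 0.265 in libraries labelled YAP and 8.40 ± 0.707 in libraries labelled EV (SD, n = 4 each). Tbx4 over Tbx5, the hindlimb and forelimb genes, was 2.95 ± 0.470 in libraries labelled YAP and 2.53 ± 0.448 in libraries labelled EV. Prrx1 over Prrx2 was 1.33 ± 0.167 in libraries labelled YAP and 1.30 ± 0.150 in libraries labelled EV. The ratios of all 4 pairs overlapped between groups.

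**Figure D3:**
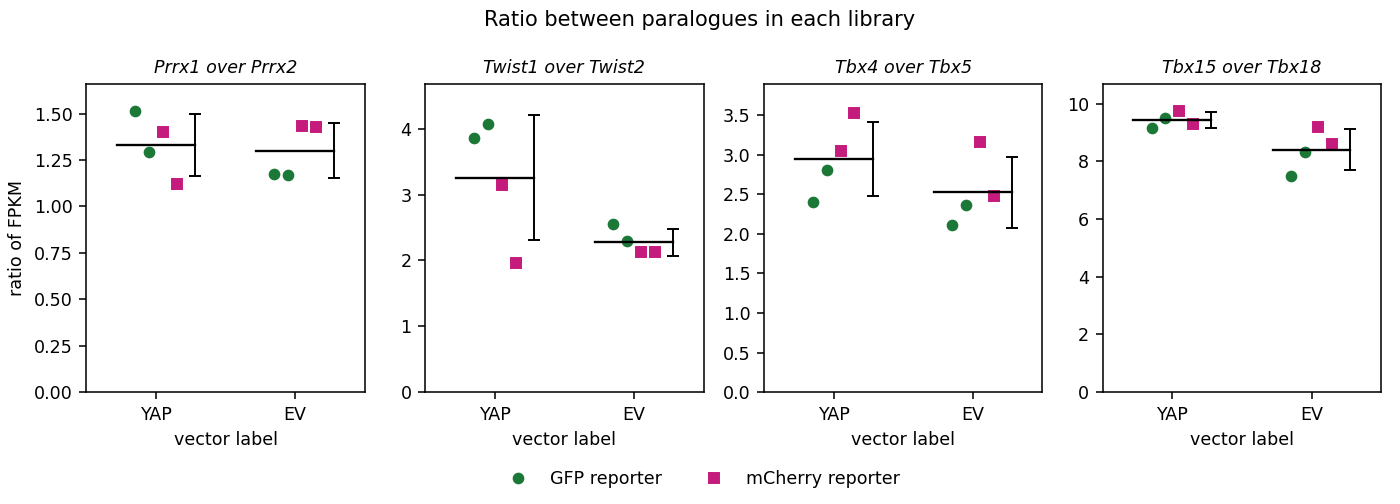
Ratio of FPKM between related members in each of the 8 libraries, YAP-labelled left of EV-labelled; symbols are as in the plot of member levels, with group means and 1 SD (n = 4). Twist1 over Twist2 spreads from 1.96 to 4.07 in YAP-labelled libraries and from 2.13 to 2.55 in EV-labelled ones.

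The fluorescent protein was the second factor of the design. Between mCherry and GFP libraries limma called 0 of the 9 members, against 0.0904% of all tested genes, and 0 of the 9 stood at an unadjusted p under 0.05, against 10.6% of all. The lowest adjusted p was 0.502, for Tbx18, whose mCherry values lay below its GFP values in both vector groups, with a log2 difference of -0.19. The interaction of vector and reporter passed for 0 of the 9 members, against 0.0678% of all tested genes, and 0 stood at an unadjusted p under 0.05 (9.81% of all). Within GFP limma called 0 of the 9 members between vectors (1.3% of all), with 1 at an unadjusted p under 0.05, Tbx18 (16.1% of all). Within mCherry it called 0 of the 9 (0.399% of all), with 0 at an unadjusted p under 0.05 (11% of all). The difference between vectors had the same sign within both reporters for 7 of the 9. The exceptions were Prrx1, at 0.11 within GFP and -0.20 within mCherry, and Meox2, at -0.066 within GFP and 0.036 within mCherry.

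By library-to-library likeness, Tbx18, the member with the lowest adjusted p, was closest to Rcan1, Mbnl1 and Pitpna among 11187 other protein-coding genes. The root mean square difference of their centred log2 values over the 8 libraries was 0.040 for Rcan1, 0.059 for Mbnl1 and 0.062 for Pitpna. Rcan1, a calcineurin regulator, averaged 8.58 ± 0.876 FPKM in libraries labelled YAP and 10.8 ± 1.33 FPKM in libraries labelled EV, with a log2 difference of -0.31 and a limma adjusted p of 0.133. None of the 3 passed the threshold.

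Relatives and partners of the members were read from lists. Of 13 other T-box genes 2 reached the filter on level, Tbx3 and Mga, and 0 passed the threshold in either direction (0.934% of all tested genes were called higher and 0.821% lower). Tbx3, a limb and heart factor and the neighbour of Tbx5, averaged 2.78 ± 0.621 FPKM in libraries labelled YAP and 3.13 ± 0.482 FPKM in libraries labelled EV. Mga, a large protein with both a T-box and a bHLH domain, had 9.74, 28.8, 9.34 and 20.2 FPKM in replicates 1 to 4 labelled YAP, against 7.75, 26.4, 8.90 and 22.1 FPKM in those labelled EV. Replicates 2 and 4 were the high ones in both groups. Of 18 homeobox relatives 11 were tested and 0 passed, with a median log2 difference of -0.14. The lowest adjusted p among them was that of Shox2, a limb factor, at 0.433, with 4.19 ± 0.343 FPKM in libraries labelled YAP and 5.13 ± 0.805 FPKM in libraries labelled EV.

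Of 14 bHLH relatives, E-protein partners and Id inhibitors, 9 were tested and 0 passed, with 3 at an unadjusted p under 0.05 (Scx, Id1 and Id2; 14.5% of all tested genes) and a median log2 difference of -0.32, against -0.0038 over all tested genes. Scx, the tendon factor, had 5.74, 5.66, 3.87 and 8.98 FPKM in replicates 1 to 4 labelled YAP, against 8.47, 11.6, 10.4 and 9.21 FPKM in those labelled EV. Its log2 difference was -0.71 (SE 0.24, limma adjusted p = 0.234). Id1 averaged 31.4 ± 5.53 FPKM in libraries labelled YAP and 43.1 ± 9.04 FPKM in libraries labelled EV (limma adjusted p = 0.317), and Id2 averaged 60.6 ± 1.41 FPKM in libraries labelled YAP and 77.2 ± 17.9 FPKM in libraries labelled EV (limma adjusted p = 0.292). Groups overlapped for all of Scx, Id1 and Id2. The log2 difference of Id1 was -0.76 within GFP and -0.12 within mCherry, and that of Id2 was -0.56 within GFP and -0.079 within mCherry. The interaction of vector and reporter did not pass for Id1 or Id2 (limma adjusted p = 0.533 and 0.438). The authors' deposited table calls Id1 (q-value 0.00519) and Id2 (q-value 0.00880) significant and does not call Scx (q-value 0.402). Of the EMT factors, Snai1, Snai2, Zeb1 and Zeb2 were tested and 0 passed. Snai2 averaged 31.4 ± 1.85 FPKM in libraries labelled YAP and 28.4 ± 2.13 FPKM in libraries labelled EV (limma adjusted p = 0.398).

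Among 33 other factors of embryonic mesenchyme, 26 were tested, 1 rose (0.934% of all tested genes) and 1 fell (0.821% of all), both odd-skipped related zinc finger genes. At an unadjusted p under 0.05 stood 7 of the 26, against 14.5% of all tested genes. Foxf1 and Foxl1 of that list and Foxc2 of the EMT list were not analysed here. Osr1, a factor of lateral plate and intermediate mesoderm, had 85.8, 89.4, 80.2 and 83.1 FPKM in replicates 1 to 4 labelled YAP, against 60.2, 57.9, 56.3 and 57.2 FPKM in those labelled EV. The groups lay well apart. Osr1 rose by 0.54 on the log2 scale (SE 0.054, limma adjusted p = 0.00724), and the call held in all 8 leave-one-out fits but not in the contrast within mCherry (adjusted p = 0.0696), whose spread is estimated from all 8 libraries. Osr2, a palate and joint factor, had 6.32, 6.46, 6.24 and 6.80 FPKM in replicates 1 to 4 labelled YAP, against 10.6, 9.87, 8.53 and 8.80 FPKM in those labelled EV. It fell by 0.51 on the log2 scale (SE 0.088, limma adjusted p = 0.0423), and the call was lost on leaving out any 1 of the 8 libraries (adjusted p 0.0674 to 0.150). Eya1, a transcriptional cofactor of ear and kidney development, averaged 7.39 ± 2.36 FPKM in libraries labelled YAP and 4.31 ± 1.66 FPKM in libraries labelled EV. Its log2 difference was 0.73 (limma adjusted p = 0.133) and did not pass. In the authors' deposited table Osr1, Osr2 and Eya1 are all called significant, Eya1 with a q-value of 0.0189.

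**Figure D4:**
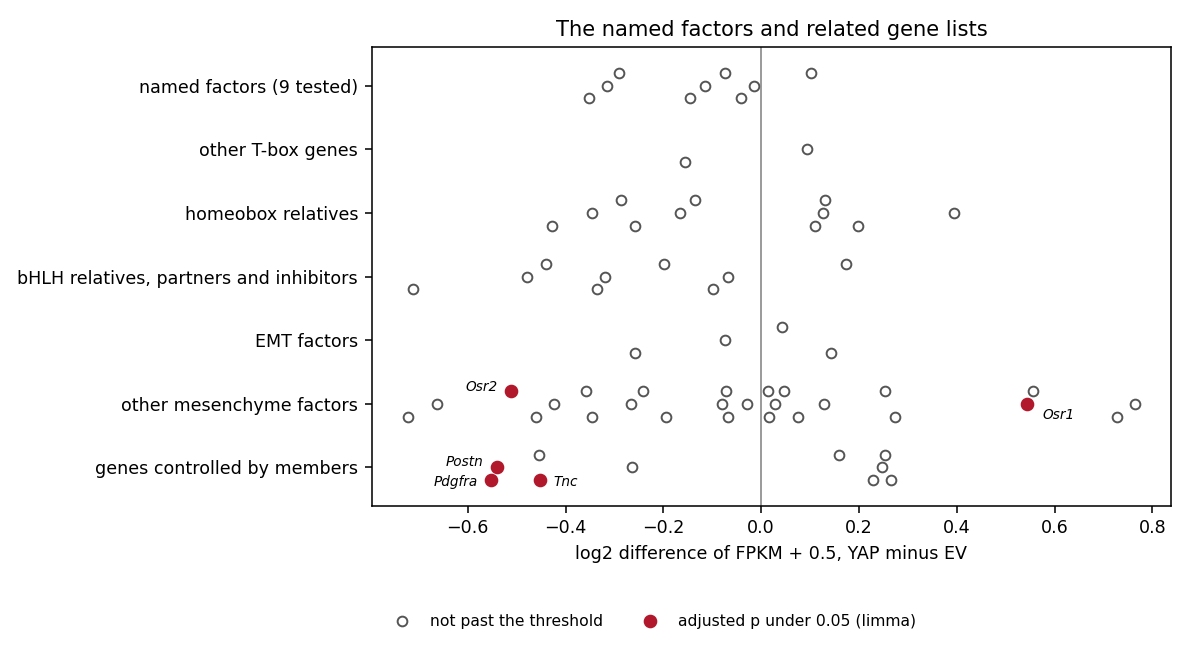
Log2 difference of FPKM + 0.5, YAP minus EV, for every tested gene of the named factors and of 6 related lists, with 1 circle a gene; filled red circles passed the threshold in limma. The 9 tested members lie between -0.35 (Twist2) and 0.10 (Twist1), and the 5 genes past the threshold are Osr1, Osr2, Tnc, Postn and Pdgfra.

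Genes known from other tissues to be controlled by members formed the last list. Of 12, 10 were tested, 0 rose (0.934% of all tested genes) and 3 fell (0.821% of all). At an unadjusted p under 0.05 stood 5 of the 10 (14.5% of all), and the list's median log2 difference was -0.053, against -0.0038 over all tested genes. Tnc, the matrix protein tenascin C and a Prrx1 target in mouse, had 107, 108, 160.4 and 150.0 FPKM in replicates 1 to 4 labelled YAP, against 161, 159.5, 191 and 201 FPKM in those labelled EV. The groups overlapped in pooled libraries, while within each reporter both libraries labelled YAP lay below both labelled EV. Tnc fell by 0.45 (SE 0.068, limma adjusted p = 0.0275), and the call held in 1 of 8 leave-one-out fits and was lost without the reporter term (adjusted p = 0.276). Postn, the matricellular protein periostin, is controlled by Twist1 in bone-forming cells. It had 164, 171, 226 and 186 FPKM in replicates 1 to 4 labelled YAP, against 242, 226, 294 and 328 FPKM in those labelled EV. Only YAP replicate 3 and EV replicate 2 touched. Postn fell by 0.54 (SE 0.082, limma adjusted p = 0.0282), and the call held in 1 of 8 leave-one-out fits and was lost without the reporter term (adjusted p = 0.152).

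Pdgfra, the PDGF receptor that marks mesenchyme, had 17.0, 17.6, 16.9 and 17.7 FPKM in replicates 1 to 4 labelled YAP, against 25.4, 22.4, 25.8 and 29.3 FPKM in those labelled EV. The groups did not overlap. Pdgfra fell by 0.55 (SE 0.084, limma adjusted p = 0.0282), and the call was lost on leaving out any 1 of the 8 libraries (adjusted p 0.0561 to 0.108). The authors' deposited table calls Tnc and Postn significant and does not call Pdgfra (q-value 0.421). It gives Pdgfra 46.3 FPKM in the pooled YAP arm and 60.7 FPKM in the pooled EV arm, levels well above the per-library values. In the contrast within GFP Tnc passed and Postn and Pdgfra did not (limma adjusted p = 0.1355 and 0.138), and in the contrast within mCherry none of the 3 passed. Cdh11, a mesenchymal cadherin, averaged 104 ± 8.92 FPKM in libraries labelled YAP and 126 ± 16.5 FPKM in libraries labelled EV and did not pass (limma adjusted p = 0.164). Fgf10, the limb and lung growth factor under Tbx4 and Tbx5, had a log2 difference of 0.25 (limma adjusted p = 0.384). Dnm3os, the host transcript of microRNAs under Twist1, had one of 0.23 (limma adjusted p = 0.354).

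Some markers of other cell types also differed between the vector groups. The summed level of 4 mesothelial markers was 25.4 to 34.95 FPKM in libraries labelled YAP and 13.5 to 14.98 FPKM in libraries labelled EV, and 1 of 4 tested, Msln, rose. Msln made up most of that sum, at 23.4 ± 4.92 FPKM in libraries labelled YAP and 9.21 ± 1.64 FPKM in libraries labelled EV. Upk3b had the higher mean in libraries labelled YAP (4.91 against 2.49 FPKM). Wt1 (1.31 against 1.51 FPKM) and Lrrn4 (1.21 against 1.33 FPKM) had the lower mean there. Of 11 macrophage markers 9 were tested and 2 fell, C1qa and C1qc, with sums of 143 to 341 FPKM in libraries labelled YAP and 272 to 390 FPKM in libraries labelled EV. For 6 endothelial markers, of which 0 reached the filter on level, the sums were 2.63 to 3.92 FPKM in libraries labelled YAP and 1.17 to 1.72 FPKM in libraries labelled EV. Kdr (mean 1.17 FPKM labelled YAP against 0.552 FPKM labelled EV) and Tek (1.41 against 0.380 FPKM) made up most of those sums. Pecam1 had the lower mean in libraries labelled YAP (0.0356 against 0.227 FPKM). Pecam1, Cdh5, Vwf and Emcn stayed below 1 FPKM in all 8 libraries. The 8 epithelial markers summed to 17.4 to 37.6 FPKM in libraries labelled YAP and 10.1 to 21.3 FPKM in libraries labelled EV, with 2 tested and 0 past the threshold. Most of that sum was Krt19, at 22.5 ± 8.45 FPKM in libraries labelled YAP and 11.2 ± 4.36 FPKM in libraries labelled EV, while Krt18 averaged 2.80 ± 1.05 FPKM in libraries labelled YAP and 3.50 ± 0.549 FPKM in libraries labelled EV. Acan, a chondrocyte marker, averaged 0.705 ± 0.307 FPKM in libraries labelled YAP and 1.99 ± 0.436 FPKM in libraries labelled EV. Its groups did not overlap, and it did not pass (limma adjusted p = 0.131). The authors' deposited table calls Acan significant (q-value 0.000502). Of the fibroblast markers, Pdgfra and Lum fell and the other 10 of 12 did not pass. Lum averaged 20.6 ± 4.86 FPKM in libraries labelled YAP and 50.9 ± 4.66 FPKM in libraries labelled EV (log2 difference -1.31, limma adjusted p = 0.0122). The part of these cell types in the differences of Osr1, Osr2, Tnc, Postn and Pdgfra was not tested.

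The nearest protein-coding genes on either side of the 10 members were read as well. Of 20 neighbours 14 were tested, 1 rose (0.934% of all tested genes) and 0 fell (0.821% of all), with 3 at an unadjusted p under 0.05 (14.5% of all). Eya4, the right neighbour of Tcf21 at 282789 bases, averaged 10.1 ± 1.46 FPKM in libraries labelled YAP and 7.18 ± 0.564 FPKM in libraries labelled EV. It rose by 0.46 (SE 0.084, limma adjusted p = 0.0485), and the call was lost on leaving out any 1 of the 8 libraries. Hdac9, a class II histone deacetylase beside Twist1 at 87751 bases, averaged 2.08 ± 0.786 FPKM in libraries labelled YAP and 5.04 ± 0.811 FPKM in libraries labelled EV. Its groups did not overlap, and its log2 difference of -1.14 (SE 0.24) had a limma adjusted p of 0.0806. Hdac4, the related deacetylase beside Twist2 at 80751 bases, averaged 11.2 ± 1.10 FPKM in libraries labelled YAP and 14.8 ± 1.98 FPKM in libraries labelled EV, with a log2 difference of -0.39 and a limma adjusted p of 0.127. In the authors' deposited table Eya4 (q-value 0.00176) and Hdac9 (q-value 0.000502) are called significant and Hdac4 (q-value 0.280) is not.

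Some members share transcript sequence with overlapping genes on the other strand. Of the distinct 50-base stretches of Twist2 transcripts, 45.7% also occur in other genes, chiefly in Gm29100, and of those of Tbx18 18.3%, chiefly in D030062O11Rik. For the other 8 members the share was at most 0.368%. Gm29100 and D030062O11Rik were listed at 0 in all 8 libraries. The authors' deposited table nevertheless gives Gm29100 0.408 FPKM in the pooled YAP arm and 0.489 FPKM in the pooled EV arm. It gives D030062O11Rik 0.345 FPKM in the pooled YAP arm and 0.337 FPKM in the pooled EV arm. The zeros therefore do not show that these genes were silent. The kit was a stranded one and whether the strand was used in counting is not given in the sources used here, so the Twist2 and Tbx18 levels are uncertain to that extent.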

How the data were processed

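RNA was extracted with Trizol and sequenced from stranded TruSeq mRNA libraries, per the labels' protocols. TopHat, Cufflinks and the mm10 build are named without versions in the submitters' processing notes. The authors deposited FPKM per gene and library, per the file headers, and a table of pooled FPKM with a p-value and q-value per gene, which was read for the authors' calls and used in no test. A deposited sheet of significant genes was not used.

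Of 48641 rows, 114 with repeated identifiers were left out. Gene coordinates (1-based) are those of GENCODE M21 (GRCm38). Tests used log2(FPKM + 0.5), a scale that understates fold changes of low genes. Genes with a mean of at least 1 FPKM over 8 libraries were tested with limma 3.58.1 in R 4.3.3 (variance trend, empirical Bayes, terms for vector and reporter), with Benjamini-Hochberg adjustment over all 13276 genes, and the code was tested on simulated data. Effects within each reporter came from a fit of the 4 combinations of vector and reporter, with a common spread from all 8 libraries. Levels are mean ± SD of 4 libraries. Alternatives changed the pseudocount, filter, trend, reporter term, replicate block, scaling, treatment of zeros, reporter subset and each library in turn.

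All 10 members are named whatever their values. From each list up to 4 genes with the smallest adjusted p and any past the threshold were eligible to be named, and 1 of these genes is not reported here. Fgf10 and Dnm3os were named after their values were seen, as were Lum, Msln, Upk3b, Wt1, Lrrn4, C1qa, C1qc, Krt18 and Krt19 among the cell type markers. The same holds for Kdr, Tek, Pecam1, Cdh5, Vwf, Emcn, Col2a1, Acan, Fabp4, Vim, Col1a1, Col1a2, Col3a1 and Fn1. Members and lists were chosen with earlier results of these data known.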

Additional observations from a re-analysis of the deposited data

Results flagged for a closer look

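Prrx1 was singled out because its difference between vectors ran in opposite directions under the 2 reporters. With GFP both libraries labelled YAP (174 and 174 FPKM) lay above both labelled EV (158 and 164 FPKM), and with mCherry both labelled YAP (164 and 137 FPKM) lay below both labelled EV (175 and 169 FPKM). The interaction, the log2 difference within mCherry minus that within GFP, was -0.31, with an unadjusted p of 0.0668 and an adjusted p of 0.553 in limma, and so did not pass. The 20 groups of 4 libraries formed by the 10 members were also examined for a single library far from the other 3, which chance gives in about 1 of 20 groups, and none was found.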

How the results depend on the processing

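The count of members past the threshold was 0 under every alternative run for the vector, the reporter and the interaction. Tbx4, Tbx5, Tbx15, Tbx18, Prrx2 and Twist2 stayed below 0 and Twist1 above 0 in all of 19 alternative fits. The alternative with exact zeros set to missing is not among these 19. The lowest adjusted p among these fits was 0.118, for Twist2 without YAP replicate 4. Prrx1 turned to 0.11 in the contrast within GFP and ran from -0.083 to 0.042 over the leave-one-out fits, where it was above 0 only without YAP replicate 4. Meox2 turned to 0.037 with quantile normalization and to 0.036 in the contrast within mCherry, and ran from -0.18 to 0.13 over the leave-one-out fits. Of all tested genes, limma called 124 higher and 109 lower in libraries labelled YAP. These counts were 75 and 71 with no filter on level (more genes tested), 80 and 70 with no reporter term, 89 and 83 in the contrast within GFP, and 32 and 21 in the contrast within mCherry. With no variance trend 78 were higher. Leaving out 1 library gave 24 to 55 higher and 17 to 55 lower. The reporter comparison called 8 higher and 4 lower, and leaving out 1 library gave 2 to 6 lower. The interaction called 6 and 3, against 11 and 12 with no filter, 7 lower with no variance trend, and 6 to 28 higher and 4 to 21 lower on leaving out 1 library. The replicate block gave 6 higher and 9 lower genes and 0 members, and the Osr1 adjusted p was 0.0951 under it. Same-numbered libraries correlated between -0.015 and 0.090 in their deviations from the group means. The replicate 1 and 4 libraries labelled YAP matched the EV library of their own number best, and replicates 2 and 3 matched another. Correlations this weak cannot settle whether the numbers pair the samples, and the main fit treats the libraries as unpaired. Apart from leaving out libraries, 12 alternatives were run for the genes outside the members, and calls held in 10 for Osr1, 7 for Osr2, 8 for Tnc, 7 for Postn, 9 for Pdgfra and 4 for Eya4. Where no cause is given in brackets, the cause was not tested. The depth behind the FPKM values is unknown, which limits what can be said of Meox2 and Tcf21.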
